A study of Mus musculus with 15 samples.

Results

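The genes described here are 40 DNA replication and mitosis genes, taken by symbol from a fixed list of cell cycle genes and looked up among the 57010 genes of the deposited count table. The rule is a list of symbols and holds no measured value, but the list was drawn up with earlier results of these data known. All 40 had enough counts to be tested. They were followed in RNA that came down, in extracts of the mouse olfactory epithelium, with an antibody to phosphorylated S6, a protein of the ribosome, and was sequenced as 1 library per replicate, each taken as 1 mouse. The 15 libraries fall into 5 groups of 3. All mice were wild-type C57BL/6J males of 8 weeks, kept in an odour-free chamber before the test and then exposed for 90 min. O+C mice smelled octanal and cis-3-hexenol from 1 filter paper, and O&C mice smelled the same pair from separate papers side by side. A+D mice smelled acetophenone and decanal from 1 paper, and A&D mice smelled that pair from separate papers. Each odorant was given as 10 µL. Control mice had empty papers. No mouse received a single odorant, and no library of RNA before the precipitation was analysed here.

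The olfactory epithelium replaces its sensory neurons throughout life. Globose basal cells divide and feed the neuronal lineage, while horizontal basal cells are mostly at rest and divide after injury. A cell that divides first licenses its replication origins with the MCM helicase, then makes nucleotides and copies its DNA, and afterwards builds cyclin B with CDK1 to enter mitosis. The genes of replication are switched on by E2F factors, and those of mitosis later by the MuvB complex with B-MYB and FOXM1. In resting cells the DREAM complex holds both sets down, through E2F sites and through a short promoter element called the CHR (cell cycle genes homology region). S6 is phosphorylated in neurons that have fired and also in cells that grow under mTOR signalling, so ribosomes of dividing cells can enter the precipitate as well.

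The libraries held 22704193 to 25287077 counts. The 40 genes took 0.248% to 0.376% of them, and their counts ran from 107 (Cenpe in O&C 3) to 20436 (Hmgb2 in A&D 1). Library A+D 2 stood apart from the rest: its mean correlation with the other libraries was 0.958, against 0.970 to 0.978 elsewhere, and ribosomal protein genes took 2.13% of its counts, against 0.894% to 1.5% elsewhere. For 12 of the 40 genes the counts were not whole numbers in at least 8 of the 15 libraries, which can happen when reads fit more than 1 gene. Whether they share reads was not tested. These are Mcm7, Gins2, Pcna, Tyms, Ccne2, Ccna2, Ccnb1, Ube2c, Kif20a, Prc1, Cenpa and Hmgb2. Genes of globose basal cells were present in every library, as given below with their summed level. Markers of bone marrow cells and red cell precursors, which divide too, were also present, as given below, so the 40 genes cannot be assigned to basal progenitors alone. In bulk precipitates like these, fewer cells of a type, less RNA per cell and less capture with phosphorylated S6 cannot be told apart. Nor can a larger share of RNA from other cells.

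Levels are given as CPM, the counts of a gene scaled to library size after TMM normalization. To compare genes with each other the mean CPM was divided by the length of the longest annotated protein-coding transcript. On that scale Hmgb2, a chromatin protein of dividing cells, was the most abundant with 245 CPM per kb, followed by Pcna, the sliding clamp of DNA polymerase, with 178 and Rrm2, a subunit of ribonucleotide reductase, with 77.1. The kinetochore motor gene Cenpe had the lowest level with 0.944 CPM per kb, and Cenpf and Mki67 followed with 1.25 and 1.26. Genes of the replication fork had a median of 27.2 CPM per kb and genes of the spindle and kinetochore 8.7. The standard deviation within a group, on the log2 scale, had a median of 0.18 over the 40 genes. It was smallest for Cdk1 (0.08) and Tyms (0.10), and largest for Mki67 (0.39), Cenpf (0.38) and Bub1 (0.33). Differences in those 3 genes are therefore measured with the least precision.

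The promoters of 4 genes are printed as examples of these elements. Cdk1 and Hmgb2 were lower in octanal and cis-3-hexenol mice. Mki67 and Mcm2 were not called in the main edgeR fit of all 15 libraries. Each is the 250 bases before the RefSeq gene start in build GRCm38.p6, written 5′ to 3′ on the strand of the gene. Capitals mark the CHR letters TTTGAA, the E2F letters TTCCCGC with the variants TTGGCGC or else TTCGCGC or else TTGCCGC, and the CCAAT box, on either strand. The windows are chr10:69352913-69353162 (minus strand) for Cdk1, chr8:57511593-57511842 (plus strand) for Hmgb2, chr7:135716380-135716629 (minus strand) for Mki67 and chr6:88898781-88899030 (minus strand) for Mcm2.
Cdk1: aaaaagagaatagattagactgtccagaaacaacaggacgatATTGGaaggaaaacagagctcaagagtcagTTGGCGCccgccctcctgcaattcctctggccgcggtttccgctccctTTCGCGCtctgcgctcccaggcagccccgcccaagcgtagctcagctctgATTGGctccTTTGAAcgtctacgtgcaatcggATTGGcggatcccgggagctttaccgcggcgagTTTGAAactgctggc
Hmgb2: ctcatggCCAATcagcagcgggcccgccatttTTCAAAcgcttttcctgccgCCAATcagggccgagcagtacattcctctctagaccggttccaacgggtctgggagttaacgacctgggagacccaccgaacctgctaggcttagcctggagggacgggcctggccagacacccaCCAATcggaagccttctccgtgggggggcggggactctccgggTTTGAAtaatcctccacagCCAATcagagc
Mki67: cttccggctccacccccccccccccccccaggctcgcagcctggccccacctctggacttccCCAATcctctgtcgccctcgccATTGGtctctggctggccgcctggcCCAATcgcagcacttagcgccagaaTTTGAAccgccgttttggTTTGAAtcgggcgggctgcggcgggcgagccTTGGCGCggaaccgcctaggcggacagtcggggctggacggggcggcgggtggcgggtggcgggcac
Mcm2: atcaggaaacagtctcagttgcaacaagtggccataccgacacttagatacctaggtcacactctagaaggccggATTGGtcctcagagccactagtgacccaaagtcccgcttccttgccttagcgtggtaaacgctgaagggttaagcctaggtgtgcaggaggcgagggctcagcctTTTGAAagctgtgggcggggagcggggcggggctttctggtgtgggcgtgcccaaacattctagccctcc

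Cdk1 held a CHR run that starts 71 bases before the gene start, with a CCAAT box (read as ATTGG on this strand) 80 bases before it, and a second CHR run at 15 bases. It also held E2F runs at 178 and 130 bases. Hmgb2 held CHR runs at 218 and 30 bases, CCAAT boxes at 243, 198, 73 and 11 bases, and no E2F run. Mki67 held CHR runs at 116 and 98 bases, an E2F run at 67 bases and 3 CCAAT boxes, while Mcm2 held 1 CHR run at 70 bases and 1 CCAAT box at 175 bases. Promoters of 33 of the 40 genes were found in the RefSeq table. The CHR letters were in 10 of them (30.3%), against 16.3% of 27025 mouse promoters of the same length. E2F letters were in 9 (27.3%), against 8.0%, and CCAAT in 26 (78.8%), against 34.5%. Both CHR and CCAAT were in 10 (30.3%), against 5.7%. E2F and CCAAT letters can overlap and were then counted as both. These are matches of letters, and whether a factor binds there was not measured.

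The summed level of the 40 genes was lowest after octanal and cis-3-hexenol. It was 2633, 2882 and 2883 CPM in O+C and 2628, 2625 and 2616 CPM in O&C. It was 3485, 2853 and 3267 CPM in A+D, 3161, 3082 and 3400 CPM in A&D, and 3184, 3359 and 3624 CPM in Control. All 6 O/C libraries lay below all 3 Control libraries, and the A/D libraries overlapped with both. Of the 40 genes, 4, 12 and 16 were above their own median over all libraries in O+C and 5, 1 and 4 in O&C, against 34, 11 and 29 in the A+D libraries, 13, 18 and 32 in the A&D libraries and 31, 32 and 38 in the Control libraries. Within A+D, library A+D 2 was low, and within A&D, A&D 3 was high. The 3 O&C libraries were nearly alike.

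**Figure D1:**
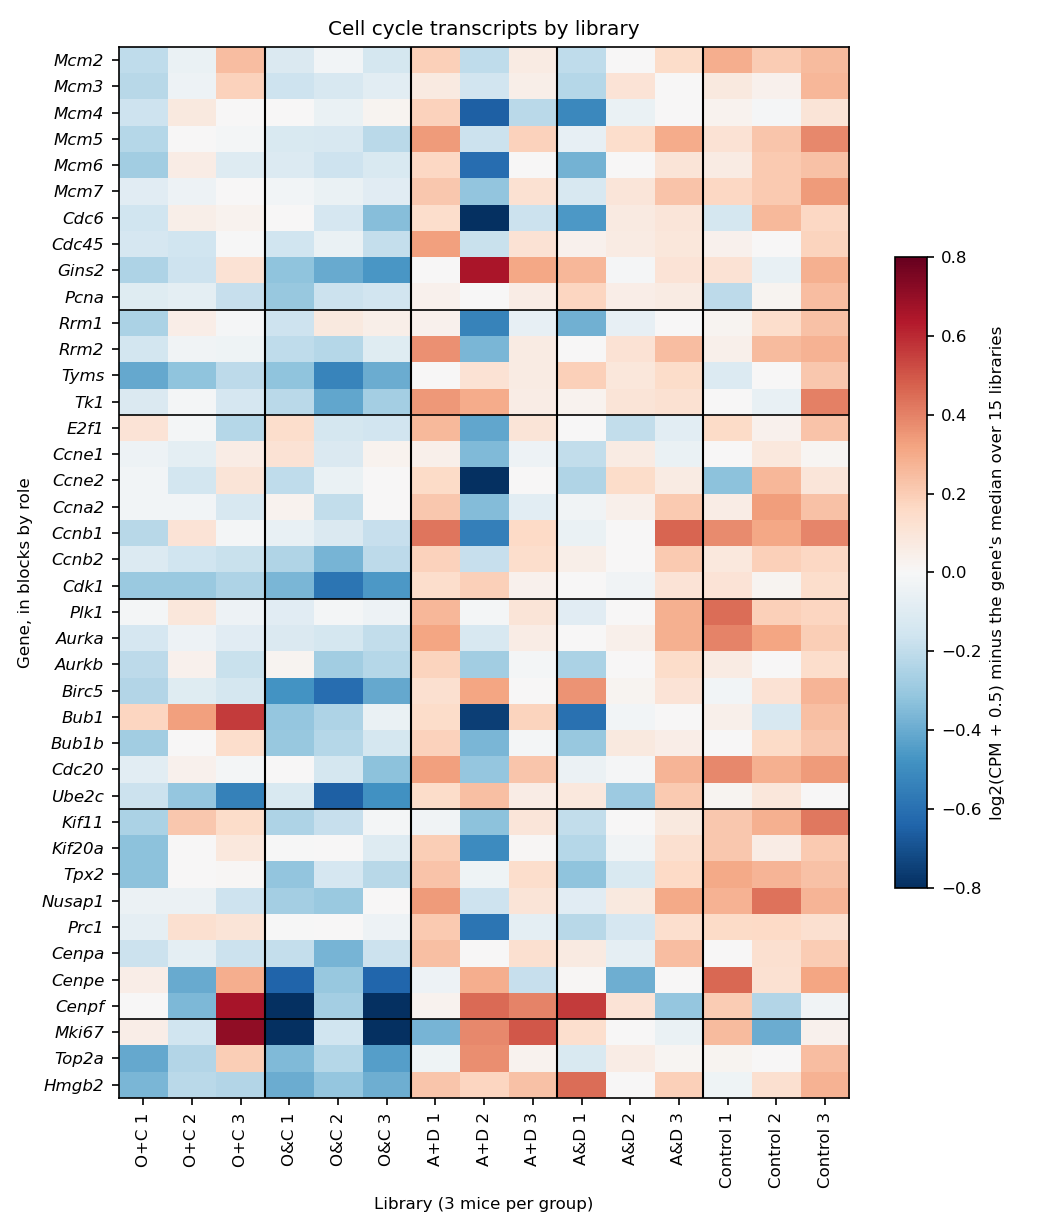
Level of each of the 40 genes (rows, in blocks by role) in each of the 15 libraries (columns, by group), as log2(CPM + 0.5) minus the median of that gene over all libraries. Blue, below the median, fills most of the O+C and O&C columns, red most of the Control columns, and A+D 2 is bluer than the other A+D libraries.

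O&C against Control asks what octanal and cis-3-hexenol from separate papers did. Of the 40 genes 16 fell and none rose (edgeR, adjusted p under 0.05), whereas 5.41% of the 19229 genes tested fell and 9.33% rose. All 40 fold changes were negative, with a median of -0.37 on the log2 scale, while the median of all genes was -0.04 and 53.6% of them were negative. In 30 of the 40 genes (75.0%) every O&C library lay below every Control library, against 19.6% of all genes. The count of 16 depended on having all mice: without any 1 of the 6 libraries it was 6 (O&C 3 left out) to 9 (Control 1, Control 2, Control 3 or O&C 1 left out). It was 7 without O&C 2. The falls in Cdk1, Birc5, Tyms and Hmgb2 were called without any 1 of these libraries.

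O+C against Control asks the same of the pair on 1 paper. Here 4 of the 40 genes fell, namely Cdk1, Hmgb2, Tyms and Aurka, and none rose, whereas 2.35% of all genes fell and 5.74% rose. The median log2 fold change was -0.25 and 37 of the 40 values were negative, while all genes had a median of -0.01 with 51.3% negative. Every O+C library lay below every Control library in 19 genes (47.5%), against 15.2% of all genes. Of the 40 genes 16 (40%) had an unadjusted p under 0.05, against 23.2% of all genes. The 4 calls stood near the threshold. The count was 2 without Control 1, 1 without Control 2 and 0 without Control 3, O+C 1, O+C 2 or O+C 3.

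O/C mice against A/D mice compares the pairs directly, with O+C and O&C averaged against A+D and A&D. Of the 40 genes 10 were lower in the O/C mice and none higher, whereas 6.74% of all genes were lower and 9.03% higher. They are Hmgb2, Cdk1, Tyms, Birc5, Gins2, Ube2c, Tk1, Ccnb2, Cenpa and Pcna. The median log2 fold change was -0.19, against -0.03 over all genes, and 32 of the 40 values were negative. In 7 genes (17.5%) each of the 6 O/C libraries lay below each of the 6 A/D libraries, against 3.25% of all genes. Leaving out A&D 3 gave 7 calls and leaving out A+D 2 gave 16. Gins2, Tyms, Tk1, Cdk1, Birc5, Ube2c and Hmgb2 kept their calls whichever of the 12 libraries was left out.

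**Figure D2:**
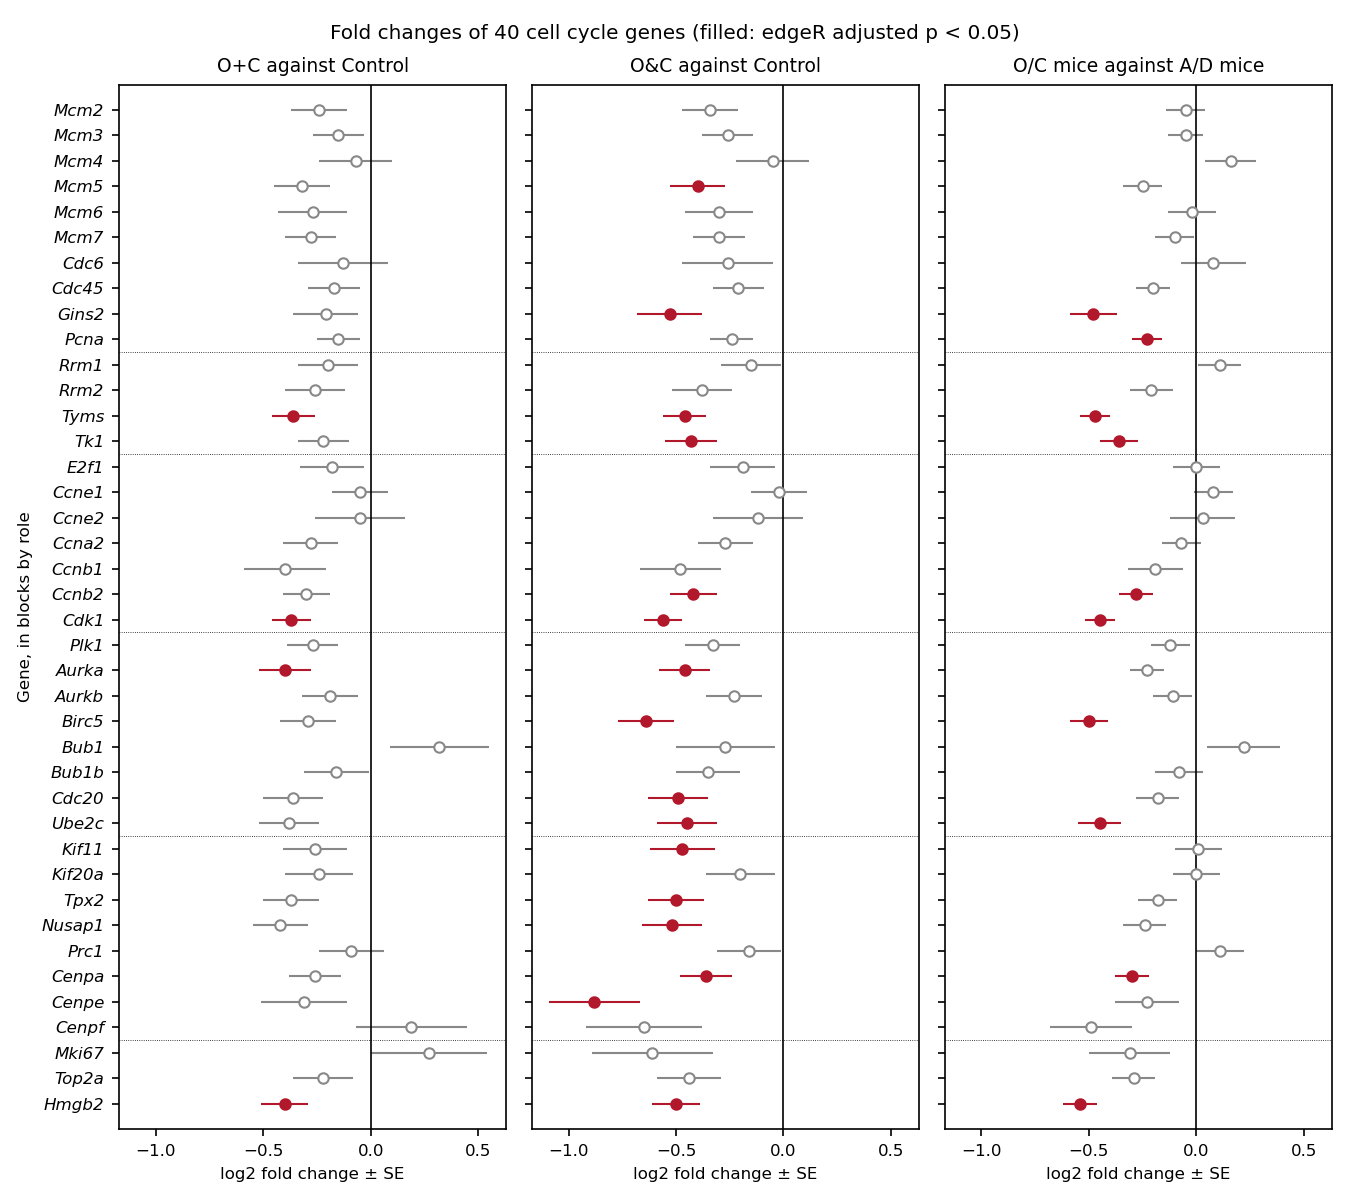
Log2 fold change (points) with its standard error (bars) of each of the 40 genes, grouped by role, for O+C and O&C against Control and for O/C against A/D mice. Filled points passed edgeR's test at an adjusted p of 0.05, and filled points lie at negative values only.

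Genes of origin licensing and the replication fork gave 2 calls of 10 in O&C against Control (Mcm5 and Gins2), 2 of 10 in O/C against A/D mice (Gins2 and Pcna) and 0 of 10 in O+C against Control (edgeR; 2 had an unadjusted p under 0.05). Gins2 (ENSMUSG00000031821), a subunit of the GINS complex of the replicative helicase, had 30.3, 32.1 and 39.1 CPM in O+C and 28.7, 27.1 and 25.9 CPM in O&C. It had 36, 57 and 44.7 CPM in A+D, 43.4, 35.7 and 38.8 CPM in A&D and 39, 34.6 and 44 CPM in Control. The O&C libraries were the lowest of all 15, while O+C overlapped with Control. Its log2 fold change was -0.53 ± 0.15 in O&C against Control (SE, edgeR adjusted p = 0.0272) and -0.48 ± 0.11 in O/C against A/D mice (edgeR adjusted p = 0.00677). The O&C call was lost without Control 1, Control 3 or any 1 O&C library, with adjusted p up to 0.121.

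Mcm5 (ENSMUSG00000005410), a subunit of the MCM helicase that is loaded at origins, had 92.1, 108 and 107 CPM in O+C, 99, 98.6 and 92.8 CPM in O&C and 117, 126 and 141 CPM in Control. Every O/C library was below every Control library, and the A/D libraries, with 137, 95.8 and 123 CPM in A+D and 103, 119 and 133 CPM in A&D, overlapped with both. Mcm5 fell in O&C on the log2 scale by -0.40 ± 0.13 (edgeR adjusted p = 0.0467), a call that was lost without any 1 of the 6 libraries (adjusted p up to 0.183). Pcna (ENSMUSG00000027342) had 258, 261 and 243 CPM in O+C and 224, 245 and 248 CPM in O&C, against 283, 276 and 287 CPM in A+D, 311, 286 and 289 CPM in A&D and 239, 280 and 327 CPM in Control. The 6 O/C libraries lay below the 6 A/D libraries, and the Control libraries reached into both. The log2 fold change in O/C against A/D mice was -0.23 ± 0.07 (edgeR adjusted p = 0.0445), and leaving out any 1 of 11 libraries ended the call (adjusted p up to 0.153), the exception being A+D 1.

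Mcm2, another subunit of the MCM helicase, had 70.3, 77.8 and 96.1 CPM in O+C, 74.7, 79.6 and 73.3 CPM in O&C, 92.5, 70.2 and 84.8 CPM in A+D and 70.2, 80.9 and 89.7 CPM in A&D. All were within or below the Control values of 98.9, 93.2 and 96.6 CPM, and 11 of the 12 odour libraries were below the lowest Control library. No comparison passed the test in the main fit, and its smallest adjusted p by edgeR was 0.0804 in O&C (log2 fold change -0.34 ± 0.13). Mcm2 was called in O&C with total count scaling and with the compared groups alone. Cdc6, the loader of the MCM helicase, had 29.5, 34.1 and 33.6 CPM in O+C, 33, 30 and 25.9 CPM in O&C, 36.5, 17 and 29.2 CPM in A+D, 23.9, 34.7 and 35.3 CPM in A&D and 29.9, 39.6 and 37 CPM in Control. The groups overlapped, and A+D 2 had the lowest value of all. Mcm3, Mcm4, Mcm6, Mcm7 and Cdc45, the last a partner of MCM at the fork, were not called in the main fit. Their log2 fold changes were -0.30 to -0.05 in O&C against Control. With the compared groups alone Mcm6 and Mcm7 were called in O&C, and Mcm7 also in O+C. Cdc45 was called in O/C against A/D mice without A+D 2.

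Among the 4 genes of nucleotide supply, Tyms and Tk1 were called. Tyms (ENSMUSG00000025747), thymidylate synthase, which makes the thymidine nucleotide for DNA, had 48, 51 and 55.2 CPM in O+C and 51, 44.2 and 48.4 CPM in O&C. It had 64, 69.3 and 67.1 CPM in A+D, 73, 68.3 and 70.9 CPM in A&D and 59.3, 64.2 and 74.4 CPM in Control. The highest of the 6 O/C libraries was below the lowest of the other 9. Tyms fell on the log2 scale by -0.46 ± 0.10 in O&C (edgeR adjusted p = 0.0064) and -0.36 ± 0.10 in O+C against Control (edgeR adjusted p = 0.0403). The value in O/C against A/D mice was -0.47 ± 0.07 (edgeR adjusted p = 0.000475). The O+C call was lost without any 1 of 5 libraries, Control 1 being the exception (adjusted p up to 0.193).

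Tk1 (ENSMUSG00000025574), thymidine kinase of the salvage route, had 38.5, 41.2 and 37.9 CPM in O+C and 35.9, 31.1 and 34.4 CPM in O&C, against 53.1, 51.4 and 43.4 CPM in A+D, 42.6, 44.9 and 45.4 CPM in A&D and 41.7, 40 and 55.2 CPM in Control. All O&C libraries were below all Control libraries, while O+C overlapped with Control, and the O/C libraries were all below the A/D libraries. The log2 fold change was -0.43 ± 0.12 in O&C against Control (edgeR adjusted p = 0.0249, up to 0.156 without Control 3 or any 1 O&C library) and -0.36 ± 0.09 in O/C against A/D mice (edgeR adjusted p = 0.0109). Rrm2 had 149, 162 and 161 CPM in O+C and 143, 141 and 154 CPM in O&C, below each of the Control values of 170, 197 and 200 CPM. The A/D libraries overlapped with both, with 213, 128 and 173 CPM in A+D and 165, 179 and 196 CPM in A&D. Rrm2 did not pass the test in O&C (log2 fold change -0.38 ± 0.14, edgeR adjusted p = 0.0793), and neither did Rrm1, the other subunit of the reductase (-0.15 ± 0.14, edgeR adjusted p = 0.525). Rrm2 was called in O&C without the count filter, with total count scaling and with the compared groups alone.

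Of the 7 genes for cyclins, CDK1 and E2F1, Cdk1 changed with the smallest error and Ccnb2 was the other one called. Cdk1 (ENSMUSG00000019942), the kinase that drives entry into mitosis, had 77.4, 77.4 and 80.4 CPM in O+C and 74, 63.4 and 69.3 CPM in O&C. It had 105, 109 and 97.7 CPM in A+D, 95.3, 93.6 and 103 CPM in A&D and 103, 96.6 and 105 CPM in Control. The 6 O/C libraries formed a lower set that did not touch the other 9, and the O&C libraries lay below the O+C libraries. Cdk1 fell on the log2 scale by -0.56 ± 0.09 in O&C (edgeR adjusted p = 0.000737) and -0.37 ± 0.09 in O+C against Control (edgeR adjusted p = 0.0202). The value in O/C against A/D mice was -0.45 ± 0.07 (edgeR adjusted p = 0.000262). In A+D and A&D against Control it was 0.03 ± 0.09 and -0.06 ± 0.09 (edgeR adjusted p = 0.9 and 0.855). The O+C call was lost without any 1 of 5 libraries, Control 2 being the exception (adjusted p up to 0.0821).

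Ccnb2 (ENSMUSG00000032218), a B-type cyclin that binds CDK1, had 54, 52.2 and 51.5 CPM in O+C, 49.2, 45 and 50.4 CPM in O&C and 61.9, 66.6 and 65.4 CPM in Control. Its levels in A+D were 66.3, 51.2 and 64.2 CPM, with A+D 2 among the O/C values, and 60.3, 58.3 and 67.4 CPM in A&D. The log2 fold change was -0.42 ± 0.11 in O&C (edgeR adjusted p = 0.0132, up to 0.056 without Control 2 or O&C 2) and -0.28 ± 0.08 in O/C against A/D mice (edgeR adjusted p = 0.0181, or 0.0731 without A&D 3). Ccnb1, the other mitotic cyclin B, had 70.6, 88.7 and 81.4 CPM in O+C and 79.1, 76 and 72.5 CPM in O&C, against 111, 56.1 and 91.9 CPM in A+D, 79.3, 82.3 and 114 CPM in A&D and 107, 102 and 108 CPM in Control. All O/C libraries were below all Control libraries and A+D 2 was the lowest of all, but the test was not passed in O&C (log2 fold change -0.48 ± 0.19, edgeR adjusted p = 0.0941). Ccnb1 was called in O+C and in O&C without the count filter and with the compared groups alone. E2f1, the transcription factor of S phase entry, had 33.8, 30.9 and 26.6 CPM in O+C, 34.6, 28.4 and 28.1 CPM in O&C, 37.6, 23.3 and 33.7 CPM in A+D, 31.3, 27.3 and 29.5 CPM in A&D and 34.9, 32.1 and 36.8 CPM in Control, and these overlapped. Ccna2, the cyclin of S phase and G2, had a log2 fold change of -0.27 ± 0.13 in O&C, and the cyclins of the G1/S transition, Ccne1 and Ccne2, had -0.02 ± 0.13 and -0.12 ± 0.21, with none called.

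**Figure D3:**
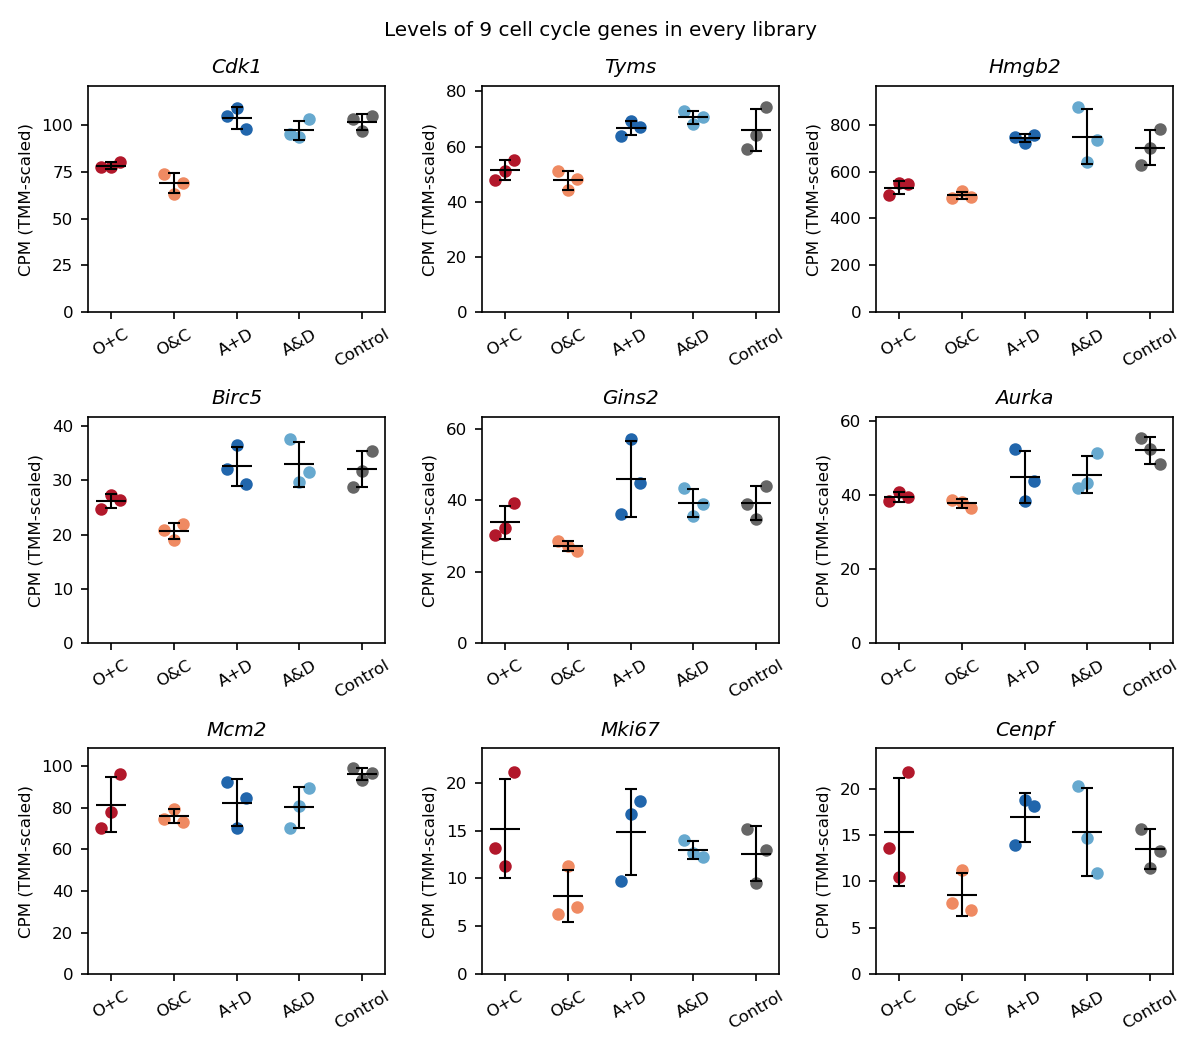
CPM of 9 of the genes in each library (points), with the mean (long bar) and SD (short bars) of the 3 libraries of a group. The O+C and O&C points of Cdk1, Tyms and Hmgb2 lie below every A+D, A&D and Control point, whereas those of Mki67 and Cenpf overlap with them.

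Mitotic kinases, the spindle checkpoint and the anaphase-promoting complex (APC/C) contributed 8 genes, of which Aurka, Birc5, Cdc20 and Ube2c were called in O&C against Control. Birc5 (ENSMUSG00000017716), survivin, a subunit of the chromosomal passenger complex, had 24.7, 27.3 and 26.4 CPM in O+C and 20.8, 19 and 21.9 CPM in O&C. It had 32, 36.4 and 29.2 CPM in A+D, 37.6, 29.7 and 31.5 CPM in A&D and 28.8, 31.7 and 35.4 CPM in Control. The O&C libraries were the lowest, O+C followed, and none of these 6 reached any of the other 9. Birc5 fell on the log2 scale by -0.64 ± 0.13 in O&C (edgeR adjusted p = 0.00275) and by -0.50 ± 0.09 in O/C against A/D mice (edgeR adjusted p = 0.00149). Birc5 did not pass the test in O+C against Control, at -0.29 ± 0.13 (edgeR adjusted p = 0.174).

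Aurka (ENSMUSG00000027496), the kinase of the spindle poles, had 38.3, 40.8 and 39.4 CPM in O+C, 38.7, 38.1 and 36.5 CPM in O&C, 52.4, 38.4 and 43.8 CPM in A+D, 42, 43.2 and 51.3 CPM in A&D and 55.4, 52.4 and 48.3 CPM in Control. The O/C libraries were all below Control, and the A/D libraries spanned both. Its log2 fold change was -0.46 ± 0.12 in O&C (edgeR adjusted p = 0.0138, up to 0.081 without Control 1 or O&C 3) and -0.40 ± 0.12 in O+C (edgeR adjusted p = 0.0453, up to 0.164 and lost without any 1 of the 6 libraries). Aurkb, the kinase of the passenger complex, had 45.9, 54.5 and 47 CPM in O+C, 54.1, 43.8 and 45.3 CPM in O&C, 60.3, 43.7 and 52.6 CPM in A+D, 44.5, 53.2 and 58.9 CPM in A&D and 55.7, 53.4 and 58.7 CPM in Control. These overlapped and no test was passed.

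Cdc20 (ENSMUSG00000006398), the activator of the APC/C at anaphase, had 84.8, 92.3 and 89 CPM in O+C and 90.1, 81.8 and 71.6 CPM in O&C, all below the Control values of 118, 110 and 114 CPM. The A+D libraries, with 113, 72.5 and 105 CPM, and the A&D libraries, with 87.2, 89.6 and 109 CPM, overlapped with the O/C values. Ube2c (ENSMUSG00000001403), the ubiquitin-conjugating enzyme of the APC/C, had 60.5, 54.9 and 46.7 CPM in O+C and 62.5, 43.2 and 48.6 CPM in O&C, against 75.6, 80.7 and 71.2 CPM in A+D, 72.2, 55.7 and 78.9 CPM in A&D and 69.4, 72.7 and 68.2 CPM in Control. Its O/C libraries were all below Control, and only A&D 2 of the A/D libraries fell among them. The O&C log2 fold changes were -0.49 ± 0.14 for Cdc20 (edgeR adjusted p = 0.0278, up to 0.163 and lost without any 1 library but O&C 1) and -0.45 ± 0.14 for Ube2c (edgeR adjusted p = 0.045, up to 0.186 and likewise lost). Ube2c gave -0.45 ± 0.10 in O/C against A/D mice (edgeR adjusted p = 0.00714). The checkpoint kinase gene Bub1 had 9.82, 11 and 13 CPM in O+C, 6.89, 7.21 and 8.32 CPM in O&C, 9.65, 4.92 and 9.87 CPM in A+D, 5.56, 8.52 and 8.65 CPM in A&D and 8.93, 7.86 and 10.3 CPM in Control, with O+C above O&C and both overlapping with Control. Bub1, its relative Bub1b and Plk1, a kinase of mitotic entry, were not called in the main fit. Plk1 and Bub1b were called in O&C with the compared groups alone, and Plk1 also with total count scaling.

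Of the 8 genes of the spindle, kinetochore and midzone, Kif11, Tpx2, Nusap1, Cenpa and Cenpe fell in O&C, and none was called by edgeR in O+C against Control, where 3 had an unadjusted p under 0.05. Tpx2 (ENSMUSG00000027469), which activates Aurora A at the spindle, had 33.9, 42.7 and 43 CPM in O+C, 34.2, 38.9 and 36.6 CPM in O&C, 50, 41.6 and 47.1 CPM in A+D, 34.1, 39.2 and 47.8 CPM in A&D and 52.7, 51.6 and 50.4 CPM in Control. It was the 1 gene of the 40 (2.50%) in which all 12 odour libraries lay below all Control libraries. That is near the 1.73% of all genes. Nusap1 (ENSMUSG00000027306), a microtubule-binding protein of the spindle, had 40.3, 40.2 and 37.1 CPM in O+C, 34.4, 33.8 and 41.6 CPM in O&C, 52.7, 37 and 44.7 CPM in A+D, 39, 44 and 51.4 CPM in A&D and 50.6, 56.5 and 50.4 CPM in Control. The O/C libraries were below Control, and the highest A+D and A&D libraries reached into the Control range. The O&C log2 fold change was -0.50 ± 0.13 for Tpx2 (edgeR adjusted p = 0.0154, up to 0.0743 if Control 1, O&C 1 or O&C 3 was left out) and -0.52 ± 0.14 for Nusap1 (edgeR adjusted p = 0.0152, up to 0.076 if Control 2, O&C 1 or O&C 2 was left out).

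Kif11 (ENSMUSG00000012443), the motor that separates the spindle poles, had 16.5, 23.1 and 22 CPM in O+C, 16.6, 17.4 and 19.6 CPM in O&C, 19.4, 15.7 and 21.2 CPM in A+D, 17.2, 19.8 and 20.9 CPM in A&D and 23.1, 24.2 and 26.7 CPM in Control. Each odour library except O+C 2 was below the lowest Control library, with which O+C 2 was level to 3 digits. Cenpa (ENSMUSG00000029177), the histone H3 variant of centromeres, had 26.8, 28.6 and 26.7 CPM in O+C and 26.4, 23.2 and 26.8 CPM in O&C, against 35.7, 30.2 and 33.1 CPM in A+D, 31.7, 28.7 and 35.9 CPM in A&D and 30.3, 33 and 34.8 CPM in Control. The O/C libraries lay below the other 9, by a narrow margin. The O&C log2 fold changes were -0.47 ± 0.15 for Kif11 (edgeR adjusted p = 0.0439) and -0.36 ± 0.12 for Cenpa (edgeR adjusted p = 0.0444), and both calls were lost without any 1 of the 6 libraries (adjusted p up to 0.158 and 0.154). Cenpa gave -0.30 ± 0.08 in O/C against A/D mice (edgeR adjusted p = 0.0196, up to 0.0793 without A&D 3 or O&C 2).

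Cenpe (ENSMUSG00000045328), the kinetochore motor, had 7.96, 5.66 and 9.49 CPM in O+C, 4.73, 6.11 and 4.76 CPM in O&C, 7.43, 9.48 and 6.69 CPM in A+D, 7.7, 5.73 and 7.66 CPM in A&D and 10.7, 8.38 and 9.67 CPM in Control. The O&C libraries were below Control, and O+C overlapped with it. Its fall in O&C, -0.88 ± 0.21 on the log2 scale (edgeR adjusted p = 0.00915), was the largest of the 40 genes, and adjusted p was 0.0573 without O&C 3. Cenpf, a kinetochore protein with a long transcript, had 13.6, 10.5 and 21.8 CPM in O+C, 7.63, 11.2 and 6.94 CPM in O&C, 13.9, 18.8 and 18.1 CPM in A+D, 20.3, 14.7 and 10.9 CPM in A&D and 15.7, 11.5 and 13.3 CPM in Control. All O&C libraries were below all Control libraries, and O+C 3 was the highest of the 15. The log2 fold change in O&C was -0.65 ± 0.27 and the test was not passed (edgeR adjusted p = 0.119). Cenpf was called in O&C without the count filter and with the compared groups alone. In O/C against A/D mice it was called by DESeq2 and without the count filter. Kif20a and Prc1, which act at the midzone in cytokinesis, were not called, at -0.20 ± 0.16 and -0.16 ± 0.15 in O&C.

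Of the 3 genes of chromatin in dividing cells, Hmgb2 was called and the proliferation marker Mki67 was not. Hmgb2 (ENSMUSG00000054717) had 499, 552 and 545 CPM in O+C and 487, 517 and 490 CPM in O&C. It had 749, 724 and 756 CPM in A+D, 874, 642 and 733 CPM in A&D and 627, 701 and 780 CPM in Control. The 6 O/C libraries lay below the other 9 without overlap. The log2 fold change was -0.50 ± 0.11 in O&C against Control (edgeR adjusted p = 0.00606), -0.40 ± 0.11 in O+C against Control (edgeR adjusted p = 0.033) and -0.54 ± 0.08 in O/C against A/D mice (edgeR adjusted p = 0.000262). The O+C call was lost without any 1 of 5 libraries, Control 1 being the exception (adjusted p up to 0.152).

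Mki67, which encodes the Ki-67 protein that coats mitotic chromosomes, had 13.2, 11.3 and 21.1 CPM in O+C, 6.29, 11.3 and 7.03 CPM in O&C, 9.69, 16.7 and 18.1 CPM in A+D, 14, 12.7 and 12.2 CPM in A&D and 15.2, 9.53 and 13 CPM in Control. O&C 1 and O&C 3 were the lowest of the 15 libraries and O+C 3 the highest, and all other groups overlapped. Its log2 fold change against Control was -0.61 ± 0.28 in O&C and 0.27 ± 0.27 in O+C, with edgeR adjusted p of 0.147 and 0.589. Without the count filter Mki67 was called in O&C against Control and in O+C against O&C. Top2a, the topoisomerase that untangles copied DNA, had 40, 45.2 and 61 CPM in O+C, 41.5, 45.3 and 39.1 CPM in O&C, 52, 69 and 54.2 CPM in A+D, 48.9, 55.4 and 53.8 CPM in A&D and 54, 53.2 and 63.2 CPM in Control. Each O&C library was below each Control library, and O+C overlapped with Control. Top2a just missed the threshold in O&C (log2 fold change -0.44 ± 0.15, edgeR adjusted p = 0.0518). Top2a was called in O&C by DESeq2, with RLE size factors, without the count filter, with total count scaling and with the compared groups alone.

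Acetophenone and decanal gave no call among the 40 genes. In A+D against Control none of the 40 passed edgeR's test, while 0.322% of all genes were called in either direction. Of the 40, 2 (5%) had an unadjusted p under 0.05, against 13.7% of all genes. In A&D against Control none passed, while 1.02% of all genes were called. There 3 of the 40 (7.5%) had an unadjusted p under 0.05, against 11.9% of all genes. DESeq2 gave 0 calls in both as well. The median log2 fold change was -0.15 in each, with 28 of 40 values negative in A+D and 33 of 40 in A&D, against all-gene medians of 0.02 and 0.00. Kif11 had the largest change in A+D (-0.40 ± 0.15, edgeR adjusted p = 0.292), followed by Cdc6 (-0.36 ± 0.21) and Cenpf (0.33 ± 0.26). In A&D the largest were Cenpe (-0.44 ± 0.21), Kif11 (-0.36 ± 0.15) and Tpx2 (-0.35 ± 0.13, edgeR adjusted p = 0.258). Every A+D library lay below every Control library in 3 genes (7.50%), near the 6.72% of all genes. Every A&D library did so in 7 genes (17.5%), against 8.87%.

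When the 12 odour mice were compared with the 3 Control mice, 4 of the 40 genes were lower and none higher, whereas 3.06% of all genes were lower and 5.26% higher. These were Aurka (-0.32 ± 0.09, edgeR adjusted p = 0.0387), Tpx2 (-0.34 ± 0.10, edgeR adjusted p = 0.0394), Nusap1 (-0.35 ± 0.10, edgeR adjusted p = 0.0453) and Cdk1 (-0.24 ± 0.07, edgeR adjusted p = 0.0477). The largest change was that of Cenpe, -0.48 ± 0.16, which was not called. The count depended on single libraries. It was 0 without Control 1, Control 2, Control 3, A+D 3, A&D 2 or O+C 1, 1 without A&D 1, O&C 1, O&C 2 or O&C 3 and 2 without O+C 3. It was 7 without A+D 2 and 8 without A+D 1.

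The way of delivery gave no call. In A+D against A&D none of the 40 genes passed edgeR's test, while 0.120% of all genes were called. Of the 40, 0 had an unadjusted p under 0.05, against 3.91% of all genes. The largest changes were those of Gins2 (0.23 ± 0.15), Tpx2 (0.20 ± 0.13) and Mki67 (0.19 ± 0.27). None of the 40 passed in O+C against O&C, and none of the 19229 genes did, so that the share of all genes called was 0%. Of the 40 genes 5 (12.5%) had an unadjusted p under 0.05, against 3.98% of all genes, and DESeq2 called 0 of the 40. In these 5 the O+C mean was higher: Mki67 (0.89 ± 0.28, edgeR unadjusted p = 0.00514), Cenpf (0.83 ± 0.27), Bub1 (0.59 ± 0.23), Cenpe (0.57 ± 0.21) and Birc5 (0.35 ± 0.13). The adjusted p by edgeR was 1 for all of them. Their transcripts are partly long and their levels low: Mki67, Cenpf and Cenpe have the 3 longest transcripts of the 40, at 10061, 11130 and 7910 bases. The median log2 fold change over the 40 was 0.10, with 35 values positive, and in 7 genes every O+C library lay above every O&C library, against 5.91% of all genes. The difference between the delivery effects of the pairs, O+C over O&C against A+D over A&D, was called in none of the 40 genes by edgeR or DESeq2. Over all genes 0.0104% were called. An unadjusted p under 0.05 was found in 0 of the 40, against 2.69% of all genes. This difference was largest for Mki67 (0.70 ± 0.39), Cenpf (0.69 ± 0.38) and Bub1 (0.49 ± 0.33). It had its smallest unadjusted p by edgeR, 0.0554, for Birc5.

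The other genes of the cell cycle were read from 3 lists of 108 genes in all. Of 32 other S phase genes, 7 fell in O&C against Control and 9 were lower in O/C against A/D mice, with 1 in O+C against Control. Over all genes tested 5.41%, 6.74% and 2.35% were lower in these comparisons, so the 1 of 32 in O+C (3.12%) is near that share. Rfc4, a subunit of the clamp loader, changed by -0.42 ± 0.10 in O&C (edgeR adjusted p = 0.00817) and -0.34 ± 0.10 in O+C (edgeR adjusted p = 0.0382). Of 41 other mitosis genes, 16 fell in O&C and 13 were lower in O/C against A/D mice, with 1 in O+C (2.44%), and none rose. Those with the largest changes in O&C were Aspm, a protein of the spindle poles (-1.05 ± 0.32), Knl1, a scaffold of the kinetochore (-0.96 ± 0.28), Espl1, the protease separase (-0.77 ± 0.22), and Kif15, a spindle motor (-0.76 ± 0.22), with edgeR adjusted p of 0.0243 to 0.0339. In O+C, Cdca3 changed by -0.43 ± 0.10 in O+C (edgeR adjusted p = 0.0166). The medians in O&C were -0.30 for S phase and -0.40 for mitosis genes. None of the S phase or mitosis genes was called by edgeR in A+D or A&D against Control. There 1 to 3 of each list had an unadjusted p under 0.05, against 13.7% and 11.9% of all genes.

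Of 35 regulators of entry and exit 34 were tested. Cdc25b, a phosphatase that activates CDK1, changed by -0.66 ± 0.13 in O&C (edgeR adjusted p = 0.00286), and Ccnd2, a D-type cyclin, by -0.64 ± 0.19 (edgeR adjusted p = 0.0352). In all 5 regulators fell in O&C (14.7%) and 1 rose (2.94%), against 5.41% and 9.33% of all genes. The 1 that rose was Rb1, the retinoblastoma protein that restrains E2F, by 0.56 ± 0.12 in O&C (edgeR adjusted p = 0.00585) and 0.43 ± 0.12 in O+C (edgeR adjusted p = 0.0409). Rb1 had 61.6, 58.5 and 58.7 CPM in O+C and 65.2, 57.6 and 73.2 CPM in O&C, against 47.9, 42.6 and 42.1 CPM in Control, with no overlap. Rb1 was also higher in O/C against A/D mice, by 0.46 ± 0.09 (edgeR adjusted p = 0.00247). There 3 regulators were lower (8.82%), which is near the 6.74% of all genes that were.

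Markers of basal cells gave few calls. Of 10 genes of globose basal cells and neuronal precursors, edgeR called none against Control in any odour group, nor in O/C against A/D mice. In these comparisons 0 to 3 of them had an unadjusted p under 0.05, against 11.9% to 31.2% of all genes. With 2.35% and 5.41% of all genes lower in O+C and O&C, a count of 0 in 10 genes is near the background. In O&C all 10 fold changes were negative, against 53.6% of those of all genes. Their summed level was 814 to 858 CPM in O+C, 776 to 931 in O&C, 901 to 984 in A+D, 916 to 938 in A&D and 907 to 1059 in Control, and their median log2 fold change was -0.14 in O+C and -0.25 in O&C. Of 6 genes of horizontal basal cells, Krt15 fell in O+C and O&C, by -1.86 ± 0.43 and -1.60 ± 0.42 (edgeR adjusted p = 0.0129 and 0.0173), at levels of 0.723 to 1.02 CPM in the O/C libraries against 1.62 to 4.83 CPM in Control. Genes of mature sensory neurons went the other way. All 10 rose after octanal and cis-3-hexenol by either route, 2 in A&D and 0 in A+D by edgeR. In A+D 4 of the 10 had an unadjusted p under 0.05, against 13.7% of all genes. Of all genes 5.74% rose in O+C and 9.33% in O&C. Their summed level was 14485 to 17940 CPM in O+C, 14705 to 20234 in O&C, 9813 to 12381 in A+D, 12293 to 15187 in A&D and 8671 to 9576 in Control.

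Markers of other cells that divide, or that come from dividing precursors, were in part also lower after octanal and cis-3-hexenol. These markers did not follow the 40 genes in every library. A+D 2 had the lowest sum of the 40 genes among the A/D libraries, 2853 CPM, but 28785 CPM for the erythroid genes. Over all genes tested 2.35% were lower in O+C, 5.41% in O&C and 6.74% in O/C against A/D mice. Of 8 genes of erythroid cells 7 were tested, and 6 fell in O&C and 0 in the other odour groups against Control (edgeR; 1 in O+C and 0 in A+D or A&D had an unadjusted p under 0.05). Of the 7 genes 4 were lower in O/C against A/D mice. The globin genes Hbb-bs, Hba-a1 and Hba-a2 had counts that were not whole in all 15 libraries. With means of 6230, 6540 and 6270 CPM, against 205 CPM for Alas2, they made up most of the erythroid sum. The summed level of the erythroid genes was 12441 to 18804 CPM in O+C, 9322 to 13072 in O&C, 19963 to 28785 in A+D, 15691 to 30344 in A&D and 16668 to 26514 in Control. Of 10 genes of bone marrow myeloid precursors 4 fell in O+C, 3 in O&C and 0 in A+D or A&D (edgeR; 2 in each had an unadjusted p under 0.05). Their summed level was 144 to 177 CPM in O+C, 120 to 140 in O&C, 145 to 247 in A+D, 181 to 216 in A&D and 199 to 329 in Control. This sum mostly follows Ltf, with a mean of 126 CPM over the libraries, against 25.3 for Ngp, 3.76 for Mpo and 1.54 for Elane. Control 1 stood apart, with a sum of 329 CPM against 199 in Control 2 and 207 in Control 3. Its Ngp level was 67.7 CPM, against 27.9 in Control 2 and 21.2 in Control 3. Its Chil3 level was 27.7 CPM, against 13.8 and 15.1. Of 10 genes of mature myeloid and lymphoid cells 2 fell in O+C and 4 in O&C, with summed levels of 383 to 434 CPM in O+C, 327 to 549 in O&C, 456 to 681 in A+D, 475 to 1124 in A&D and 593 to 994 in Control. Of 6 genes of sustentacular cells, the supporting cells of the epithelium, 1 fell in O+C and 3 in O&C, with summed levels of 3074 to 3774 CPM in O+C, 2820 to 3781 in O&C, 3635 to 4270 in A+D, 3568 to 4012 in A&D and 4280 to 5298 in Control. Ribosomal protein genes took 0.894% to 1.12% of the counts in O+C and 0.908% to 1.04% in O&C, against 1.22% to 2.13% in A+D, 1.25% to 1.45% in A&D and 1.1% to 1.5% in Control. The T cell gene Cd3e was at 0 in 1 library, O+C 1, and no other marker of these lists was at 0 in any library. The part of these cells, and of the ribosomal protein share, in the lower levels of the 40 genes was not tested.

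**Figure D4:**
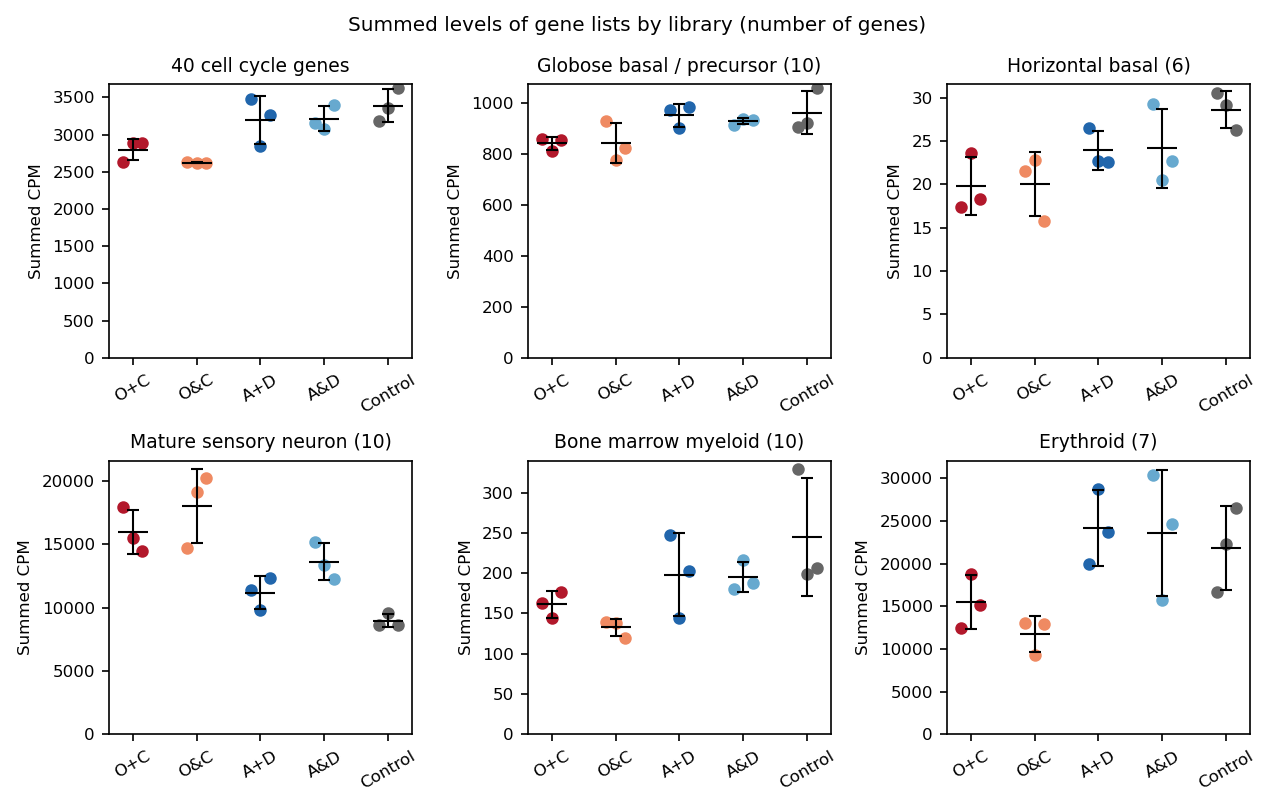
Summed CPM of the 40 genes and of marker lists of other cell types in each library (points) by group, with the mean (long bar) and SD (short bars). By their means the 40 genes and the erythroid list are lowest in the O&C column, whereas the list of mature sensory neurons is highest there.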

How the data were processed

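RNA bound to phosphorylated S6 was purified with an antibody and sequenced from TruSeq Stranded mRNA libraries on a NovaSeq instrument, per the labels' protocols. The authors deposited 1 table of expected counts per gene, which can have decimals and carry no scaling by library size. STAR 2.7.10b, Salmon 1.10.1, R 4.4.2 and build GRCm39 are named in the submitters' processing notes, and the annotation and strand setting are not given in the sources used here. Counts that are not whole (beyond a tolerance of 5e-04) were taken as a possible sign of shared reads.

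Counts were rounded, genes were kept by filterByExpr with a minimum count of 10 (19229 of 57010), and library sizes were scaled by TMM. A model of 1 mean per group over the 15 libraries was fitted in R 4.3.3 by edgeR 4.0.16, and its robust quasi-likelihood test applied. A standard error is |log2 fold change| over the square root of the F statistic. Tests were two-sided, with Benjamini-Hochberg adjustment over all genes tested and a threshold of 0.05, in 9 comparisons. The biological coefficient of variation was 0.183. Library totals were 22704193 to 25287077, and the lowest count of any of the 40 genes in a library was 107.

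The 40 genes and the 13 other lists (cell cycle genes and cell type markers) were chosen with earlier results of these data known. Genes with values in every library were 12 fixed examples of the roles, every gene of the 40 called in any comparison, and in each comparison the 3 with the largest change and the 1 with the smallest p. From the other lists, genes were named among the 4 called with the largest change. Cd3e was named after its values were seen. Of the 57010 identifiers 52029 matched a symbol, and Lin54 and Ahsp were not found. Transcript lengths came from Gencode vM21 and promoters from RefSeq on GRCm38.p6, used for names, lengths and letters only. Alternatives were other scalings, no count filter, DESeq2 1.42.0, the replicate number as a block, a fit of the compared groups only, and leaving out each library in turn. Replicate numbers showed no sign of pairing the mice, in a check that is weak with 3 mice a group.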

Additional observations from a re-analysis of the deposited data

Results flagged for a closer look

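For 10 of the 40 genes the effect of octanal and cis-3-hexenol differed from that of acetophenone and decanal in a direct test of the difference, O/C against A/D mice (edgeR adjusted p under 0.05). The log2 differences were -0.54 for Hmgb2, -0.50 for Birc5, -0.48 for Gins2, -0.47 for Tyms, -0.45 for Cdk1, -0.45 for Ube2c, -0.36 for Tk1, -0.30 for Cenpa, -0.28 for Ccnb2 and -0.23 for Pcna. Gins2, Pcna, Tyms, Ube2c, Cenpa and Hmgb2 are among the genes whose counts were not whole numbers in at least 8 of the 15 libraries. Markers of erythroid cells were lower in the same comparison, with 15464 ± 3193 CPM in O+C and 11758 ± 2111 CPM in O&C against 24139 ± 4429 CPM in A+D and 23545 ± 7383 CPM in A&D (SD, n = 3 each). Of other marker lists in this comparison, 9 of 10 genes of mature sensory neurons were higher (edgeR adjusted p under 0.05). Lower were 3 of 10 genes of myeloid and lymphoid cells and 2 of 8 of endothelial and stromal cells. So were 1 of 6 of sustentacular cells, 1 of 10 of bone marrow myeloid precursors and 1 of 6 of respiratory ciliated cells. Over all genes 9.03% were higher and 6.74% lower, and a single call in a list this short cannot be set apart from that share. Ribosomal protein genes took 0.988% ± 0.0916 of the counts in O/C mice against 1.43% ± 0.354 in A/D mice (SD, n = 6 each). The part of these in the 10 differences was not tested.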

How the results depend on the processing

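No called fold change of the 40 genes turned round under any alternative. Of 34 such results 11 kept their call without any 1 library, and 22 under all other settings. The median log2 fold change of the 40 was -0.31 to -0.20 for O+C mice, -0.46 to -0.33 for O&C mice and -0.21 to -0.09 for O/C against A/D mice.

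The number of genes that fell in O+C was 4, 1 with the replicate block, 12 with the compared groups alone and 0 to 2 without 1 library. In O&C it was 16, 25 with the compared groups alone and 6 to 9 without 1 library. O/C against A/D mice gave 10, and 7 to 16 without 1 library. For all odour mice it was 4, 0 with the replicate block, 8 with total count scaling (chosen after seeing the data), 7 with DESeq2 and 0 to 8 without 1 library. For O+C against O&C 0 genes were higher, or 2 without the count filter, namely Mki67 and Cenpf. The causes were not tested. Same-numbered mice did not deviate together (r from -0.331 to 0.144 over 30 pairs, 13 of 60 best with their own number). With 3 mice a group this check is weak and cannot exclude a pairing.

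Over all genes, calls in O+C against Control were 1555, or 2618 with the compared groups alone and 542 to 1206 without 1 library. In O&C they were 2834, or 4664 with the compared groups alone and 1274 to 2284 without 1 library. O/C against A/D mice gave 3032, or 1720 to 4293 without 1 library, and for all odour mice 1600, or 423 to 2614. In A+D they were 62, or 885 without the filter, 235 with DESeq2 and 43 to 527 without 1 library. In A&D they were 197, or 610 without the filter, 439 with DESeq2, 368 with the compared groups alone and 112 to 201 without 1 library. With 3 mice a group, changes in low genes such as Mki67, Cenpf and Bub1 were not detectable at this precision unless large.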

Other observations

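Among the other lists, markers of immature sensory neurons gave 1 gene higher and none lower of 8 in both O+C and O&C against Control. With 5.74% and 9.33% of all genes higher there, 1 of 8 is near the background. That gene was Lhx2, a transcription factor of the neuronal lineage, at 0.43 ± 0.12 in O+C and 0.58 ± 0.12 in O&C on the log2 scale (edgeR adjusted p = 0.0382 and 0.00451). Gap43, a growth cone protein, and Gng8, a G protein subunit of immature neurons, were lower in O/C against A/D mice, with -0.34 ± 0.07 and -0.41 ± 0.10 (edgeR adjusted p = 0.00484 and 0.0119). Stmn2 was lower too (-0.3 ± 0.07, edgeR adjusted p = 0.0119). Lhx2 was higher there (0.37 ± 0.09, edgeR adjusted p = 0.00962), and 3 of the 8 fold changes were positive. Of 8 endothelial and stromal genes 1 fell in O+C and 1 in O&C, where 2.35% and 5.41% of all genes were lower. A single call in a list this short cannot be set apart from those shares. The endothelial and stromal sum was 1891 to 3063 CPM in O+C, 2002 to 2253 in O&C and 2326 to 2858 in Control. In A+D it was 2621 to 3134 CPM and in A&D 2900 to 3266 CPM. Of 6 genes of respiratory ciliated cells 1 fell in O&C, which likewise cannot be set apart from the 5.41% of all genes. Their sum was 422 to 454 CPM in O&C and 419 to 472 CPM in Control.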
